A study of Homo sapiens with 16 samples.

Results

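The comparison described here is between the PIK3CA mutant and the PIK3CA wild-type derivative of DLD1, an established human colorectal carcinoma cell line, after 24 h without glutamine. Its members were taken by sample title, 2 arrays labelled DLD1 PIK3CA Mut without glutamine and 2 labelled DLD1 PIK3CA WT without glutamine, which are 4 of the 16 arrays of the series. PIK3CA encodes p110-alpha, a catalytic subunit of phosphoinositide 3-kinase (PI3K). The Mut derivative carried only the mutant allele of the gene, its wild-type allele having been removed by knockout. The WT derivative carried only the wild-type allele, and there the mutant one was removed. All groups were cultured in DMEM with 10% dialyzed fetal bovine serum, from which small molecules such as free amino acids have been removed. The other groups used beside these 4 arrays were the same derivatives with glutamine (4 arrays) and the Mut and WT derivatives of a second colorectal line, HCT116, without glutamine (4 arrays). The labels name 1 derivative for each genotype of each line, so the allele and other differences between the derivatives cannot be told apart. The labels call the 2 arrays of a group biological replicates. The p-values measure the spread between replicates, estimated for each gene over all 8 groups of the series, the HCT116 derivatives with glutamine among them.

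PI3K makes a membrane lipid that recruits and activates the kinase AKT, which promotes growth and, through mTORC1, protein synthesis. Glutamine is the most abundant amino acid in culture medium and feeds the tricarboxylic acid cycle, nucleotide synthesis and the synthesis of other amino acids. Cells short of an amino acid activate the kinase GCN2 and the transcription factor ATF4, which turns on genes of amino acid synthesis, transport and stress.

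Total RNA was labelled by an Affymetrix whole-transcript protocol, and the deposited values are intensities, used here as log2. The 4 arrays had median intensities between 3.57 and 3.62 and upper quartiles between 19.9 and 21.0, so their distributions were close. The replicates correlated across the 15676 tested genes with r = 0.991 in each group. The median absolute log2 difference was 0.150 between the Mut replicates and 0.141 between the WT replicates, against 0.205 between the Mut and WT means. Of the colon epithelial identity list, 14 of 18 tested markers, EPCAM, CDH1 and CDX2 among them, lay above 4 times the array median on all 4 arrays. Of the other cell types' markers only CD68 (leukocyte list) and ESAM (endothelial list) did, and no fibroblast marker. On all 4 arrays 9 of 15 leukocyte, 7 of 11 fibroblast and 5 of 9 endothelial markers lay below the array median, PTPRC, DCN and VWF among them. Above it on all 4 were 5 leukocyte markers (CD79A, CD68, NKG7, CSF1R and TYROBP), 3 fibroblast markers (COL1A1, THY1 and ACTA2) and 3 endothelial markers (ERG, CLDN5 and ESAM). The summed intensity of the colon identity list was 7973 and 7799 on the Mut arrays and 10010 and 9963 on the WT arrays, and that of the leukocyte list was 70.1 and 72.4 against 82.3 and 90.6. It was 46.2 and 43.8 against 53.4 and 54.6 for the fibroblast list and 61.1 and 68.7 against 55.1 and 57.3 for the endothelial list. The part of any of these in the results was not tested. PIK3CA was not analysed here, so the labels were not checked by the edited gene.

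Of the 15676 tested genes 1610 (10.3%) differed between Mut and WT cells without glutamine by limma with a Benjamini-Hochberg adjusted p under 0.05, and these are the genes called below. In Mut cells 683 (4.36%) were higher and 927 (5.91%) lower, and the median log2 difference over all tested genes was 0.0027. Of the calls 42.4% were higher, and 54.4% were higher when every array was set to the same median, a shift of 0.0494. Errors given with log2 differences are limma's standard errors from a fit of all 16 arrays, with 2 arrays in each group. Arrays of the 2 groups did not overlap for 55.7% of tested genes, so non-overlap is common here. The count fell to 769 without Mut replicate 1, 849 without Mut replicate 2, 709 without WT replicate 1 and 823 without WT replicate 2. Fitted on the 4 arrays alone, with 2 residual degrees of freedom, it was 171. Of 175 called genes examined singly, 103 kept their call whichever of the 4 arrays was left out, and unless a sentence says otherwise the genes named as higher or lower are among these 103.

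The largest differences were in genes that WT cells held at clear levels and that were lower in Mut cells. A fall or a rise here means lower or higher in Mut than in WT cells. VGLL1, a cofactor of the TEAD transcription factors, was at log2 1.95 and 1.71 in Mut cells and at 7.91 and 7.95 in WT cells. Its Mut level lay close to the array median, which was 1.83 to 1.85 on the log2 scale. The difference was -6.10 ± 0.19 (68.8-fold, adjusted p = 5.39e-08). RPS6KA6, a kinase of the ribosomal S6 kinase family that acts below ERK, was at 1.54 and 1.33 against 7.08 and 7.06. KRT20, the keratin of differentiated intestinal epithelium, was at 2.28 and 2.24 against 7.79 and 7.88. For all 3 genes the gap between the groups was many times the distance between replicates. Arrays without overlap were a condition for the genes taken as largest falls or rises. UGT8, which makes galactosylceramide, differed by -5.10 ± 0.13 (34.4-fold, adjusted p = 9e-09). FBP1, the fructose-1,6-bisphosphatase of gluconeogenesis, differed by -4.69 ± 0.30 (25.8-fold, adjusted p = 8.29e-06). TMEM47, PBDC1, EHD2, PRSS8, RAB38, ANXA9, KLK7, NRIP1 and TMPRSS4 followed, with log2 differences from -4.61 to -2.99.

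PRSS8 (prostasin), a membrane-anchored serine protease of epithelia, was at 5.83 and 6.08 in Mut cells and 9.48 and 9.33 in WT cells, a difference of -3.45 ± 0.13. EHD2, an ATPase of caveolae, was at 1.34 and 1.22 against 4.75 and 4.80. NRIP1, a corepressor of nuclear receptors, was at 4.26 and 4.48 against 7.41 and 7.33. Of the 15 largest falls 10 had both Mut arrays within 2 times the array median, so these folds rest on a level near the dim end of the arrays. Of the 15 largest falls 4 (VGLL1, RPS6KA6, TMEM47 and PBDC1) lie on chromosome X, and all 4 are among the 7 largest. That chromosome holds 511 of the 15676 tested genes. Of these 511 genes 31 (6.07%) were called lower at any size, near the 5.91% over all genes. The median log2 difference of each of the 23 chromosomes lay between -0.0338 and 0.0425. Whether a change of gene copies in 1 derivative bears on these genes was not tested.

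The largest rises were KLHL4, a kelch-like protein gene, EEF1A2, a tissue-restricted isoform of the translation elongation factor 1 alpha, and SCIN, the actin-severing protein scinderin. KLHL4 was at log2 6.83 and 6.82 in Mut cells and at 1.52 and 2.17 in WT cells, a difference of 4.98 ± 0.17 (31.6-fold, adjusted p = 7.67e-08). EEF1A2 was at 8.59 and 8.42 against 4.91 and 5.12, and SCIN at 6.93 and 7.06 against 3.90 and 3.92. WT cells still held EEF1A2 and SCIN above the array median. NUPR1, a stress-induced nuclear protein, was at 7.65 and 7.45 against 5.26 and 4.86, a difference of 2.49 ± 0.22 (adjusted p = 8.2e-05). CC2D2A, a protein of the ciliary base, differed by 2.35 ± 0.15, and ANGPT1, a ligand of the receptor TIE2, by 2.05 ± 0.21. RAET1L, a ligand of the immune receptor NKG2D from a family of near-identical copies and so uncertain, differed by 2.31 ± 0.36. Of the 15 largest rises, ZNF430 lost its call without any of the 4 arrays, with adjusted p from 0.0861 to 0.194. Of the 15, 7 had both WT arrays within 2 times the array median.

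**Figure D1:**
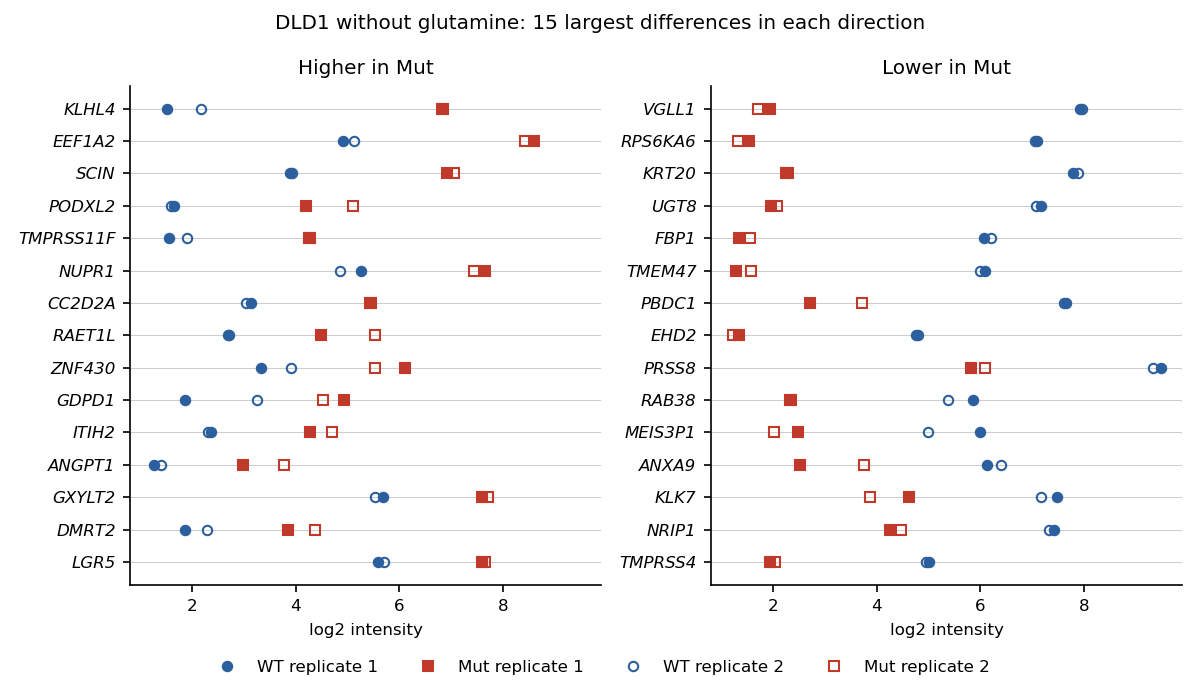
Log2 intensity (x axis) on each of the 4 arrays for the 15 genes most raised (left) and most lowered (right) in DLD1 Mut against WT cells without glutamine; squares are Mut arrays, circles WT arrays, filled for replicate 1 and open for replicate 2. VGLL1 lies at 1.95 and 1.71 in Mut and 7.91 and 7.95 in WT cells, and KLHL4 at 6.83 and 6.82 against 1.52 and 2.17.

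Many genes of DNA replication and mitosis were lower in Mut cells. Of 38 tested replication genes 18 were lower and none higher, with a median log2 difference of -0.35 against 0.0027 over all tested genes. Of 28 tested mitosis genes 13 were lower and none higher, with a median of -0.38. The share called lower over all tested genes was 5.91%. The differences were small: replication genes ranged from -0.94 to 0.28 and mitosis genes from -0.78 to 0.10. The lower replication genes numbered 7 without Mut replicate 1, 9 without Mut replicate 2, 7 without WT replicate 1 and 10 without WT replicate 2, and none were called on the 4 arrays alone. The lower mitosis genes numbered 6, 9, 8 and 8 with the same arrays left out, and none on the 4 arrays alone. The lists were written with earlier results of these data known.

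CDC6, which loads the replicative helicase onto origins, was at log2 7.55 and 7.62 in Mut cells and 8.47 and 8.58 in WT cells. Its difference was -0.94 ± 0.09 (1.92-fold, adjusted p = 0.000107). MCM3, a subunit of that helicase, was at 8.18 on both Mut arrays and at 9.02 and 8.97 in WT cells (-0.82 ± 0.09, adjusted p = 0.000474). RFC4, of the complex that loads the sliding clamp, was at 7.26 and 7.32 against 8.08 and 8.14. GINS4, of the GINS helicase complex, was at 5.61 and 5.83 against 6.60 and 6.44. In each of the 4 genes both Mut arrays lay below both WT arrays, as they did for 27.5% of all tested genes. Among mitosis genes, UBE2C, the ubiquitin-conjugating enzyme of the anaphase-promoting complex, was at 5.73 and 5.61 against 6.46 and 6.43 (-0.78 ± 0.09, adjusted p = 0.000395). The kinase PLK1 was at 8.95 and 9.05 against 9.62 and 9.73. The spindle factor TPX2 differed by -0.66 ± 0.08 and ANLN, the scaffold of the cleavage furrow, by -0.59 ± 0.08. In a bulk sample, fewer dividing cells and less RNA per dividing cell cannot be told apart.

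Because E2F factors control many replication genes and the CHR element many mitosis genes, their letters were looked for in RefSeq promoters (GRCh38.p14, 250 bases before to 50 after a gene's start). The E2F words were TTTCCCGC and TTTGGCGC and the CHR word was TTTGAA, each searched on both strands. E2F words lay in 15 of 31 replication genes with a promoter in the table (48.4%) and in 8 of the 15 lower ones (53.3%), against 3.36% of the promoters of tested genes. The CHR word lay in 14 of 23 mitosis genes (60.9%) and in 7 of the 11 lower ones (63.6%), against 9.99%. The share in the lower members was thus close to that in the whole list. The stretches below hold the words found upstream of MCM3, MCM6, GINS2 and PLK1, with the word in capitals, 5′ to 3′ on the gene's strand. MCM6 was lower by 0.43 and lost its call without WT replicate 1 (adjusted p = 0.0539), and GINS2 was lower by 0.68 and lost it without Mut replicate 2 (adjusted p = 0.0545).
MCM3 (chr6:52284888-52284937, minus strand): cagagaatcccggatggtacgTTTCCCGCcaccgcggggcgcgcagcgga
MCM6 (chr2:135876518-135876603, minus strand): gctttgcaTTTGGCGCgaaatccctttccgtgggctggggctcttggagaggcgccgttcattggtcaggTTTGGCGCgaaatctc
GINS2 (chr16:85688965-85689014, minus strand): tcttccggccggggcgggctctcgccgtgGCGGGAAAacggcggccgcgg
PLK1 (chr16:23678829-23678878, plus strand): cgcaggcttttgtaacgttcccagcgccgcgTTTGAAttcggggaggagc
The word of MCM3 begins 174 bases before the gene's start, and that of PLK1 29 bases before it. A match of letters is a description and not a site of binding.

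Interferon-stimulated genes are switched on in response to interferon and restrict viruses. Of 30 tested members 9 were lower in Mut cells, against 5.91% of all tested genes, none was higher and 21 were not called, with a median log2 difference of -0.42. The lower members numbered 6 whichever of the 4 arrays was left out, and without Mut replicate 2 the member OAS2 was called higher. On the 4 arrays alone 3 were lower. HERC5, the ligase that attaches ISG15, was at log2 4.04 and 3.59 in Mut cells and 5.95 and 5.66 in WT cells (-1.99 ± 0.19, 3.98-fold, adjusted p = 0.000154). IFI6, a mitochondrial interferon-induced protein, was at 5.43 and 5.31 against 6.77 and 6.84 (-1.44 ± 0.11, adjusted p = 2.89e-05). IFIT3, which binds IFIT1 in the antiviral IFIT complex, was at 1.03 and 1.41 against 3.179 and 2.999. MX2, an antiviral GTPase, was at 1.26 and 1.38 against 2.25 and 2.78. MX2 lay within 2 times the array median in both groups and IFIT3 in Mut cells, where both genes were below that median. OAS1, IRF7, PARP9, HERC6 and ISG15 were lower by 0.37 to 0.99 and each lost its call without at least 1 array. For OAS1 these were Mut replicate 2 (adjusted p = 0.0706) and WT replicate 2 (0.0728), and for ISG15 all 4 arrays (0.0739 to 0.265). For IRF7 they were Mut replicate 1 (0.0785) and WT replicate 2 (0.068), for PARP9 Mut replicate 1 (0.061) and WT replicate 1 (0.0603), and for HERC6 Mut replicate 2 (0.0601) and WT replicate 1 (0.0666).

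The word of the interferon-stimulated response element (ISRE), GAAA, any 2 bases and GAAA again, searched on both strands, lay in the promoters of 15 of 24 members with one in the table (62.5%) and of 4 of the 7 lower members (57.1%). It lay in 2.59% of the promoters of tested genes. The stretches of the 4 lower genes that hold it are given with the word in capitals, and overlapping words of HERC5 and ISG15 run together.
IFIT3 (chr10:89327827-89327906, plus strand): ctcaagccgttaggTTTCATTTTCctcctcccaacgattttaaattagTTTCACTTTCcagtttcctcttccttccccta
IFI6 (chr1:27672268-27672357, minus strand): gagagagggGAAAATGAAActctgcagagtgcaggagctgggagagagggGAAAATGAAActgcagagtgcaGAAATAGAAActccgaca
HERC5 (chr4:88456984-88457063, plus strand): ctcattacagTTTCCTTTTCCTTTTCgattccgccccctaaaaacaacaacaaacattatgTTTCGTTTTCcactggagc
ISG15 (chr1:1013372-1013411, plus strand): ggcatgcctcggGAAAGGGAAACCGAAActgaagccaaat
IFI6 and HERC5 hold 3 words each and IFIT3 and ISG15 hold 2 each.

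The amino acid response genes, the targets of ATF4, included members in both directions without glutamine. Of 42 tested members 3 were higher and 8 lower in Mut cells, against 4.36% and 5.91% of all tested genes, with a median log2 difference of -0.12. The other 31 were not called. With single arrays left out, 1 or 2 members were higher and 3 to 5 lower. DDIT4, an inhibitor of mTORC1, was at 9.32 and 9.40 in Mut cells and 9.07 and 9.01 in WT cells, a difference of 0.32 ± 0.13 that was not called (adjusted p = 0.164). CHAC1, a glutathione-degrading enzyme, was at 8.89 and 8.93 against 9.002 and 9.027, and ASNS, asparagine synthetase, at 8.21 and 8.20 against 8.39 and 8.52. Neither of these 2 passed the test (adjusted p = 0.661 and 0.169). Called members included NUPR1, higher as given above, and PCK2, CLGN and FAM13A, lower. PCK2, the mitochondrial phosphoenolpyruvate carboxykinase, was at 5.9985 and 6.2574 against 7.08 and 7.05 (-0.94 ± 0.16, adjusted p = 0.00447). CLGN, a chaperone of the endoplasmic reticulum, was at 2.81 and 2.06 against 5.29 and 5.50.

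Of 19 tested aminoacyl-tRNA synthetases 3 were higher and 2 lower in Mut cells, and the 2 that kept their calls moved apart. VARS1, which charges valine, differed by 0.47 ± 0.08 and IARS1, which charges isoleucine, by -0.50 ± 0.08. Of 22 amino acid transporters 2 were lower, the glutamate carrier SLC1A3 (-0.94 ± 0.15) and SLC36A4 (-1.02 ± 0.18), and none higher. The median log2 difference of the transporters was -0.03. Beside the counts of these lists, 4.36% of all tested genes were higher and 5.91% lower. GLUL, glutamine synthetase, was at 3.19 and 3.35 in Mut cells and 3.14 and 3.30 in WT cells, so the groups overlapped and no difference was detected (adjusted p = 0.919). Of 17 genes of serine, glycine and one-carbon metabolism 7 were lower and 1 higher, and 3 to 5 were lower with single arrays left out. ALDH1L1, a folate dehydrogenase, was at 1.96 and 2.09 against 4.32 and 3.79. MAT2A, which makes S-adenosylmethionine, was at 7.34 and 7.62 against 8.13 and 8.23 (-0.70 ± 0.11, adjusted p = 0.00332).

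**Figure D2:**
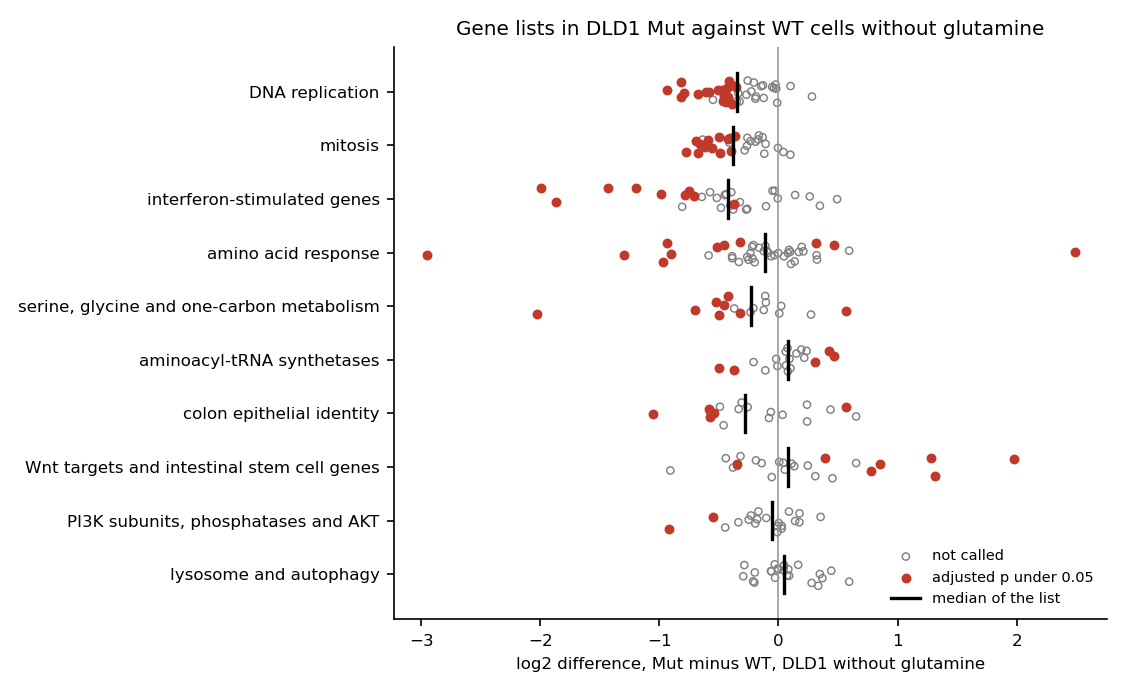
Log2 difference between DLD1 Mut and WT cells without glutamine (x axis) for every tested member of 10 gene lists (rows); filled points have an adjusted p under 0.05, open points do not, and the bar is the median of the list. The medians of the replication, mitosis and interferon lists lie at -0.35, -0.38 and -0.42, and no member of those lists was called higher.

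Of 20 tested PI3K subunits, phosphatases and kinases 2 were lower and none higher, a share near the 10.3% called over all tested genes, and the median log2 difference was -0.06. INPP4B, which removes a phosphate from a PI3K lipid product, was at log2 5.35 and 5.36 in Mut cells and 6.18 and 6.38 in WT cells (-0.92 ± 0.13, 1.89-fold, adjusted p = 0.00176). INPP4A, its relative, was lower by 0.55, and lost its call without Mut replicate 1 (adjusted p = 0.147), WT replicate 1 (0.0775) or WT replicate 2 (0.127). The regulatory subunit PIK3R1 differed by 0.09 ± 0.18, the catalytic subunit PIK3CB by 0.18 ± 0.10, AKT1 by -0.17 ± 0.20 and AKT2 by 0.00 ± 0.12, and none of them was called. Of 27 tested FOXO targets and growth factor receptors 4 were higher and 2 lower, against 4.36% and 5.91% of all tested genes. The 4 were FOXO1 (0.92 ± 0.17), the receptor MET (0.44 ± 0.09), BCL6 and GADD45A, and each lost its call without at least 2 of the 4 arrays. The lower receptors were INSR (-0.61 ± 0.12), which lost its call without Mut replicate 1 (adjusted p = 0.0522) or WT replicate 1 (0.0629), and ERBB3. ERBB3, which binds PI3K when phosphorylated, was at 5.16 and 5.42 against 6.75 and 6.58 (-1.38 ± 0.13, 2.60-fold, adjusted p = 0.000138). IRS2, the adaptor of the insulin receptor, was at 5.59 and 5.72 against 6.32 and 6.15, which missed the threshold (adjusted p = 0.0628). Of 33 mTORC1 components and brakes 3 were higher and 2 lower, beside the same 4.36% and 5.91% of all tested genes. RRAGA, a GTPase that recruits mTORC1 to the lysosome, was higher by 0.76 ± 0.12. Of 24 lysosome and autophagy genes none was called.

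ERK pathway output and YAP-TEAD genes included members in both directions. Over all tested genes 4.36% were higher and 5.91% lower. Of 28 tested ERK output genes 6 were lower and 3 higher. The transcription factor ETV1 was at log2 1.89 and 1.80 in Mut cells and 4.20 and 4.29 in WT cells (-2.40 ± 0.20, adjusted p = 6.92e-05), and DUSP6, the phosphatase of ERK, at 10.04 and 10.20 against 10.91 and 10.93 (-0.79 ± 0.09). EGR1 and the cytokine LIF were lower by 0.71 and 0.85. Of 28 YAP-TEAD factors and targets 6 were lower, VGLL1 and ANKRD1 (-1.17 ± 0.18) among them, and 3 higher, among them PTPN14 (0.67 ± 0.10), a phosphatase that binds YAP. SLC2A1, the main glucose transporter GLUT1, was at 9.76 and 9.83 against 10.94 and 10.93 (-1.14 ± 0.10, 2.20-fold, adjusted p = 6.92e-05). Of 31 tested genes of hypoxia and glycolysis it was 1 of 2 that were lower, and 2 were higher, shares near those over all genes. PLK2, a kinase that p53 induces, was higher by 1.38 ± 0.09. It was 1 of 3 called higher among 22 tested p53 targets, of which 1 was lower and 18 were not called. The median log2 difference of those targets was 0.03.

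Intestinal epithelial genes differed in both directions too, beside 4.36% higher and 5.91% lower over all tested genes. LGR5, the receptor that marks intestinal stem cells, was at log2 7.59 and 7.65 in Mut cells and 5.59 and 5.70 in WT cells (1.98 ± 0.31, 3.95-fold, adjusted p = 0.00301). SOX4, a Wnt-induced transcription factor, was at 9.33 and 9.53 against 8.12 and 8.17 (1.28 ± 0.11, adjusted p = 7.83e-05). They were 2 of the 6 called higher among 24 Wnt target and stem cell genes, of which 1 was lower, and 2, 2, 4 and 2 were higher without Mut replicate 1, Mut replicate 2, WT replicate 1 and WT replicate 2. Of 31 genes of colon epithelial differentiation 4 were lower and 2 higher. Those lower were KRT20 and FBP1, given above, HNF4G, a nuclear receptor of enterocytes (-1.55 ± 0.25), and the membrane mucin MUC13 (-1.48 ± 0.21). DPP4, a peptidase of the brush border, was higher (1.25 ± 0.15). Of 18 colon identity genes 4 were lower and 1 higher. The higher one was CDX2 (0.57), which lost its call without WT replicate 1. The tight junction genes CLDN3 and CLDN7 differed by -1.05 ± 0.15 and -0.54 ± 0.09, and KRT19 by -0.57 ± 0.08. N-cadherin, CDH2, was at 3.57 and 3.82 against 2.98 and 2.83. Of 27 tested genes of epithelial junctions and the mesenchymal switch 2 were higher and 4 lower, with a median log2 difference of -0.004.

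The same comparison with glutamine was used to ask which of these differences depended on glutamine. With glutamine 910 genes (5.81%) were called, 408 (2.6%) higher and 502 (3.2%) lower in Mut cells. Of the 683 genes higher without glutamine 148 were also higher with it, which is 21.7% of the first and 36.3% of the second list. Of the 927 lower genes 279 were lower with it, 30.1% and 55.6% of the lists. Only 1 and 6 genes were called in opposite directions, and the 2 comparisons share no array but share 1 estimate of each gene's spread. Of the 15 largest falls 15 were also lower with glutamine, and of the 15 largest rises 10 were higher and 1 lower with it. The size of the difference changed between media, as tested next, for 5 of those falls (RPS6KA6, UGT8, EHD2, PRSS8 and NRIP1) and 3 of those rises (SCIN, TMPRSS11F and ANGPT1). VGLL1 differed by -5.77 ± 0.19 with glutamine, KRT20 by -6.96 ± 0.24, KLHL4 by 4.66 ± 0.17 and EEF1A2 by 3.74 ± 0.13.

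The difference of the 2 differences, tested in the same fit, was called for 129 genes (0.823%), 40 (0.255%) of them more positive and 89 (0.568%) more negative without glutamine. With every array set to the same median 53.3% of the calls were more positive, against 31.0% here. This count was the least steady: 15 to 36 genes with 1 of the 8 DLD1 arrays left out, with the lowest without WT replicate 2 of the groups without glutamine, and 3 genes in a fit of the DLD1 arrays alone. Those 3 were CHAC1, TMPRSS11F and IGHV4-34, of which only CHAC1 and TMPRSS11F are among the 129. IGHV4-34 is an immunoglobulin segment with near-identical copies, uncertain and named after its call was seen. DDIT4, CHAC1, PHGDH, PSAT1, UBE2C, EHD2, NRIP1 and TMPRSS11F kept their calls with each of the 8 arrays left out.

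Among the 32 lists the amino acid response had the most members with a called change between media, and it also had the most tested members. The share was slightly higher in the serine, glycine and one-carbon list (6 of 17). Over all tested genes the change was called more negative for 0.568%. Of the 42 amino acid response members 17 were higher and 2 lower in Mut cells with glutamine, with a median log2 difference of 0.40. Without it 3 were higher and 8 lower, with a median of -0.12. Over all tested genes 2.6% were higher and 3.2% lower with glutamine, and 4.36% and 5.91% without it. The difference was called for 13 members, all more negative without glutamine, and for 4 to 7 with single arrays left out. DDIT4 with glutamine was at 7.49 and 7.95 in Mut cells and 4.96 and 5.02 in WT cells (2.73 ± 0.13). It reached 9.32 and 9.40 in Mut and 9.07 and 9.01 in WT cells without glutamine, so the gap of the genotypes changed by -2.40 ± 0.19 (adjusted p = 0.000777, or 0.0682 on the DLD1 arrays alone). CHAC1 was at 8.18 and 8.23 in Mut cells and 6.47 and 6.28 in WT cells with glutamine, and its change was -1.94 ± 0.18 (adjusted p = 0.00161, or 0.0335 on the DLD1 arrays alone). In both genes the WT arrays lay well below the Mut arrays with glutamine and near them without it. On the DLD1 arrays alone the change was called for 1 member of the list, CHAC1.

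The serine synthesis enzymes followed the same pattern. Their list shares genes with the amino acid response list. Most of the changes called in it are therefore also counted among the 13 above. PHGDH, the first enzyme of the route, was at log2 8.61 and 8.59 in Mut cells and 7.55 and 7.30 in WT cells with glutamine, and at 9.03 and 9.08 against 9.14 and 9.21 without it. The change was -1.30 ± 0.13 (adjusted p = 0.00358, or 0.0944 on the DLD1 arrays alone). PSAT1, the second enzyme, was at 11.09 and 11.20 against 10.31 and 10.42 with glutamine and at 11.16 and 11.19 against 11.53 and 11.46 without it, so the Mut levels were alike in both media while the WT arrays lay below them in the one and above them in the other (-1.10 ± 0.12, adjusted p = 0.00562). Its own difference without glutamine, -0.32, lost its call without any 1 of the 4 arrays (adjusted p from 0.107 to 0.197). PSPH, the third enzyme, changed by -1.13 ± 0.14 (adjusted p = 0.00846) and lost this call with 1 of the 8 arrays left out. In the list of 17 serine, glycine and one-carbon genes the change was called for 6, all more negative, and for 2 to 4 with single arrays left out. On the DLD1 arrays alone it was called for none of them.

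The word TGATGNAA of the ATF4 response element, searched on both strands, lay in the promoters of 6 of 35 amino acid response genes (17.1%), against 1.93% of promoters of tested genes. Of the 13 members with a called change 9 had a promoter in the table, and it lay in 2 of them, CHAC1 and ASNS. It lay in none of the 6 with a promoter among the members lower without glutamine. The CHAC1 and ASNS stretches are given with the word in capitals.
CHAC1 (chr15:40953241-40953290, plus strand): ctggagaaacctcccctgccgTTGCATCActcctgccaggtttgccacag
ASNS (chr7:97872454-97872503, minus strand): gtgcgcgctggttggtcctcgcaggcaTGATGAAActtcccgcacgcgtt
ASNS with glutamine was at 7.12 and 6.96 in Mut cells and 6.11 and 6.24 in WT cells. Its change was -1.12 ± 0.15 (adjusted p = 0.0112), and it lost this call with 5 of the 8 arrays left out.

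**Figure D3:**
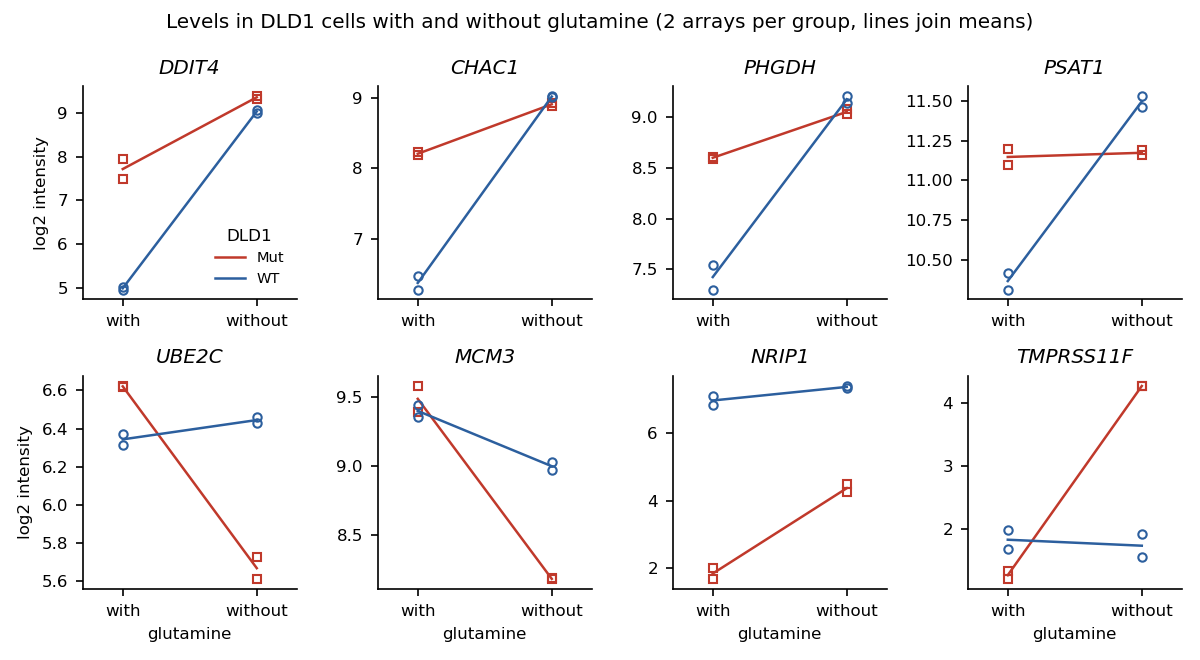
Log2 intensity (y axis, a scale of its own in each panel) of 8 genes in DLD1 Mut (squares) and WT (circles) cells with and without glutamine (x axis); each point is 1 array and lines join the group means. The genotypes lie apart with glutamine and close together without it for DDIT4, CHAC1 and PHGDH, while for UBE2C and MCM3 the Mut cells lie lower without glutamine.

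For replication and mitosis genes the genotypes lay closer with glutamine. Of 38 replication genes 2 were higher and none lower in Mut cells with glutamine, and of 28 mitosis genes 1 was higher and 1 lower, with medians of 0.12 and -0.05. UBE2C was at log2 6.62 and 6.63 in Mut cells and 6.32 and 6.37 in WT cells with glutamine. Its difference changed by -1.05 ± 0.12 (adjusted p = 0.00585, or 0.0944 on the DLD1 arrays alone). MCM3 was at 9.58 and 9.39 against 9.44 and 9.35, so the groups overlapped, and its change was -0.90 ± 0.13 (adjusted p = 0.0177). The change was called for 8 replication and 2 mitosis genes, all more negative, against 0.568% of all tested genes. With every array set to the same median it was called for 3 replication genes and 1 mitosis gene. On the DLD1 arrays alone it was called for none. With any single array left out it was called for 1 mitosis gene. The replication calls were 2 (without Mut replicate 2 with glutamine) or 0 with single arrays left out, at which MCM3 lost its call in 7 of 8 cases. Among other genes, TMPRSS11F, a membrane serine protease, differed between genotypes by 2.54 ± 0.14 without glutamine and by -0.56 ± 0.14 with it. NRIP1 was lower in Mut cells in both media, by 5.14 with and 3.01 without glutamine, a change of 2.13 ± 0.19 (adjusted p = 0.00161).

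**Figure D4:**
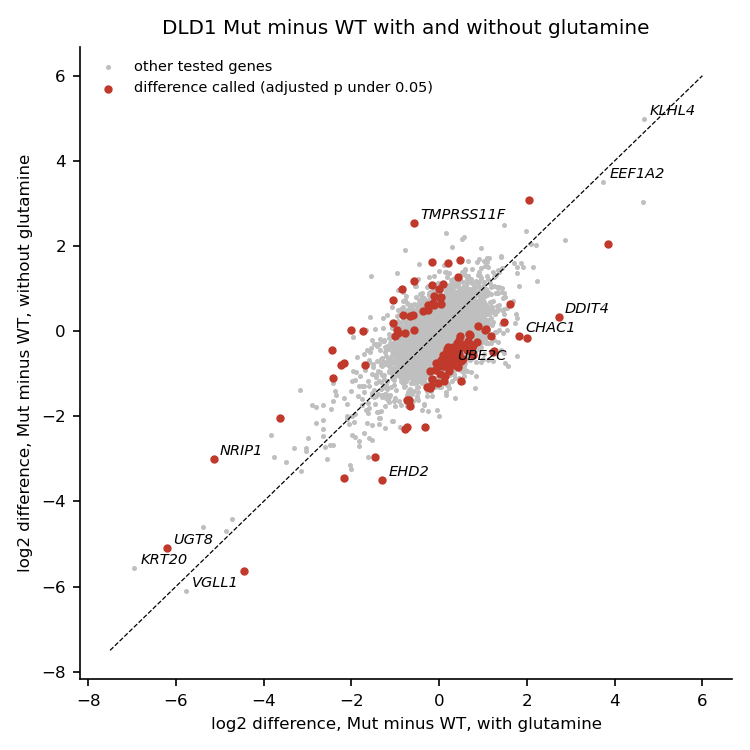
Log2 difference between DLD1 Mut and WT cells with glutamine (x axis) and without it (y axis) for the 15676 tested genes; the dashed line marks equal differences and filled red points are the 129 genes whose differences were called unlike. DDIT4 and CHAC1 lie at 2.73 and 1.83 on the x axis and near 0 on the y axis.

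HCT116 cells without glutamine served to see which differences were shared by a second Mut and WT pair. There 3858 genes (24.6%) were called, 1922 (12.3%) higher and 1936 (12.4%) lower in Mut cells. Of the 683 genes higher in DLD1 Mut cells 233 (34.1%, and 12.1% of the HCT116 list) were higher in HCT116 too and 88 were lower. Of the 927 lower genes 313 (33.8%, and 16.2%) were lower too and 142 were higher. The difference between the lines was called for 2169 genes (13.8%), 1029 (6.56%) more positive and 1140 (7.27%) more negative in DLD1.

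Among the genes lower in both lines were SAMD9, GALNT5, MUC13, IFI6, LGALS3BP and KANK2. SAMD9, an antiviral factor, differed by -2.50 ± 0.18 in DLD1 and -1.60 ± 0.18 in HCT116. GALNT5, which starts mucin-type glycosylation, differed by -2.43 ± 0.22 and -3.54 ± 0.22, and LGALS3BP, a secreted galectin-binding glycoprotein, by -1.65 ± 0.13 and -1.40 ± 0.13. ERBB3 was lower by 1.14 in HCT116, INPP4B by 0.76 and the survival factor BCL2L1, lower by 0.65 in DLD1, by 0.59. Genes higher in both lines included the cytokine receptor IL6R (1.36 ± 0.20 and 1.24 ± 0.20), the lipoxygenase ALOXE3 (1.23 ± 0.12 and 2.07 ± 0.12) and ITPRIP (1.26 ± 0.19 and 1.18 ± 0.19). Of 30 tested interferon-stimulated genes 11 were lower and 1 higher in HCT116 Mut cells, against 12.4% and 12.3% of all tested genes. IFI6 there differed by -1.92 ± 0.11. The difference between the lines was called for members in both directions, 4 more positive and 6 more negative in DLD1. Over all tested genes these shares were 6.56% and 7.27%.

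Mitosis and replication genes went opposite ways in the 2 lines. In HCT116, 24 of 28 mitosis genes were higher in Mut cells and none lower, with a median log2 difference of 0.81 against -0.38 in DLD1. The difference between the lines was called for 25 of the 28, all more negative in DLD1, and for 24 or 25 with any of the 8 arrays left out. UBE2C was at 7.60 and 7.61 in HCT116 Mut cells and 6.44 and 6.36 in HCT116 WT cells, and the lines differed by -1.98 ± 0.12 (adjusted p = 1.18e-05). PLK1 differed between genotypes by 0.62 ± 0.09 in HCT116. Of 38 replication genes 16 were higher and 4 lower in HCT116 Mut cells, and the lines differed in 23 more negative and 1 more positive in DLD1, with 15 to 20 more negative when single arrays were left out.

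Several of the largest DLD1 differences were not found in HCT116. VGLL1 was at log2 1.92 and 2.25 in HCT116 Mut and 2.12 and 1.87 in HCT116 WT cells, so it was near the array median in both, and the lines differed by -6.19 ± 0.28 (adjusted p = 1e-06). UGT8 and PBDC1 were at 7.46 to 7.96 on all 4 HCT116 arrays, without a called difference, and the lines differed by -4.93 ± 0.19 and -4.72 ± 0.35. EEF1A2 was at 8.72 and 8.82 in HCT116 Mut cells and 9.41 and 9.39 in HCT116 WT cells, a small difference the other way. SLC2A1 was higher in HCT116 Mut cells by 0.76 ± 0.10, against lower by 1.14 in DLD1 (adjusted p of the difference 3.31e-05). SNAI2, which represses E-cadherin, differed by 5.24 ± 0.25 in HCT116 and by 0.10 ± 0.25 in DLD1.

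**Figure D5:**
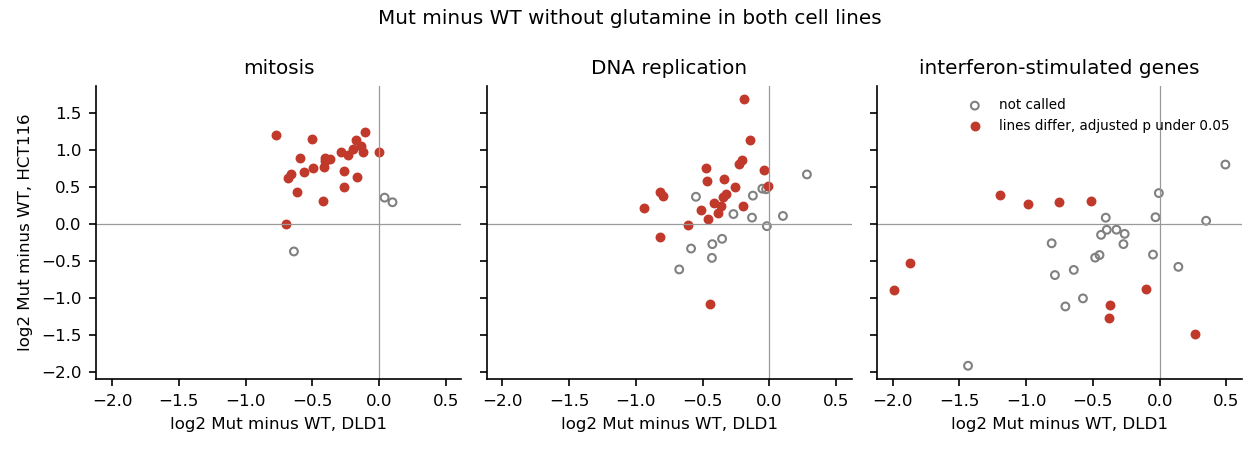
Log2 difference between Mut and WT cells without glutamine in DLD1 (x axis) and HCT116 (y axis) for the tested members of 3 gene lists; each point is 1 gene and filled points are genes whose difference between the lines was called. Most mitosis genes lie left of 0 and above it, with medians of -0.38 and 0.81.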

How the data were processed

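Per the labels' protocols, total RNA was labelled with biotin by the Affymetrix whole-transcript protocol. The deposited table holds a linear intensity for 53617 probe sets on 16 arrays. Their normalization is not given in the sources used here. Values were taken as log2 of the deposited intensity, with no pseudocount. Of the probe sets 23871 had 1 gene symbol, 1842 several and 27904 none, and the last 2 kinds were not used. The brightest probe set was kept for the 632 genes with several, 90 symbols were updated through RefSeq (GRCh38.p14), and 22395 genes resulted. Genes in the upper 70% of mean log2 (at least 1.65), 15676 in all, were tested.

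The test was limma 3.58.1 in R 4.3.3 (lmFit, eBayes), 8 group means over 16 arrays, 8 residual and 2.49 prior degrees of freedom, Benjamini-Hochberg adjusted p under 0.05. It was also run on simulated data, with levels and spreads taken from these arrays. A fold is the antilog of the absolute log2 difference. The number of arrays limits the precision.

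The members and lists were chosen with earlier results of these data known. The 32 lists hold 805 symbols, of which 732 could be matched to an own probe set and 644 were tested; 68 are in more than 1 list. Named were the 15 largest rises and falls without overlap, the 8 largest per direction in each difference and in both lines, up to 4 called members a list and 2 in the other direction, and DDIT4, ASNS, GLUL, CXCL8, KRT20, IRS2, ERBB3 and PI3K genes, and some others chosen after their values were seen. These others are list members described with their list (such as OAS1, MCM6 and GINS2) and the genes of the last part. The text gives a part of these.

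Promoters were the first listed for each of 27305 symbols. Replicate numbers did not pair the arrays: the correlation of deviations between groups ran from -0.0361 to 0.0334 over 28 pairs of groups. Alternatives were other filters, scalings, probe set rules, moderation, a pseudocount of 1, a 2-fold minimum (log2 of 1), fewer arrays in the fit, a replicate block and leaving out each array.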

Additional observations from a re-analysis of the deposited data

Results flagged for a closer look

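The genotype difference was tested for a change between media and between lines, and the results where it changed are listed here with no explanation. Between media it changed for 129 genes. The change (log2 difference without minus with glutamine) was 3.1 for TMPRSS11F, 2.13 for NRIP1, 2.03 for KCNJ8, 1.98 for PTGS2, 1.83 for HEXA-AS1, 1.78 for CYP1A1, 1.78 for AKAP5 and 1.74 for STX17-DT. It was -2.40 for DDIT4, -2.19 for EHD2, -2.17 for VLDLR, -1.94 for CHAC1, -1.93 for SEMA4A, -1.80 for ANGPT1, -1.71 for RN5S161 and -1.71 for SIDT1. HEXA-AS1 is antisense to its partner gene and RN5S161 belongs to a family of near-identical copies, so both are uncertain. Without glutamine KCNJ8, PTGS2, AKAP5, SIDT1 and RN5S161 lay within 2 times the array median in both DLD1 groups. TMPRSS11F, HEXA-AS1 and ANGPT1 did so in WT cells only, and EHD2 and SEMA4A in Mut cells only. Of these 16 genes TMPRSS11F, NRIP1, DDIT4, EHD2 and CHAC1 kept their calls with each of the 8 DLD1 arrays left out. PTGS2, the inducible cyclooxygenase, was at log2 3.71 and 4.17 in WT cells with glutamine and between 1.42 and 2.22 on the other 6 DLD1 arrays. CYP1A1, a target of the aryl hydrocarbon receptor, was at 6.18 and 6.19 in Mut cells without glutamine and between 3.28 and 4.65 on the other 6.

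Between DLD1 and HCT116 without glutamine it differed for 2169 genes. The difference (DLD1 minus HCT116) was 5.22 for KLHL4, 5.03 for WNT16, 4.12 for EEF1A2, 3.53 for TNFSF18, 3.45 for MAN1A1, 3.33 for GDPD1, 3.15 for SEMA3A and 3.07 for SCIN. It was -6.19 for VGLL1, -5.50 for RPS6KA6, -5.15 for SNAI2, -4.93 for UGT8, -4.81 for TMEM47, -4.72 for PBDC1, -4.40 for KRT20 and -4.35 for FBP1. WNT16, TNFSF18, SEMA3A and SNAI2 were not called in DLD1 and differed by -3.93, -3.10, -3.14 and 5.24 in HCT116. MAN1A1, a mannosidase of N-glycan trimming, was called in both lines in opposite directions, 1.21 in DLD1 and -2.24 in HCT116.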

How the results depend on the processing

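The count of called genes for Mut against WT without glutamine was 171 on the 4 arrays alone, 345 with a log2 difference of at least 1, and 709 to 849 with single arrays left out. With glutamine it was 1379 with trend and robust moderation, 599 on the DLD1 arrays, 157 on the 4 arrays alone, 297 with the minimum difference, and 459 to 609 with single arrays left out. The change between media was called for 46 genes with no filter, 328 for genes above the median level, 602 with trend and robust moderation, 3 on the DLD1 arrays, 63 with the minimum difference, and 15 to 36 with single arrays left out. HCT116 gave 1441 on its 4 arrays alone and 755 with the minimum difference, and the difference between lines gave 942 with the minimum. The replicate block gave 1471 genes without glutamine, 845 with it and 76 for the change between media. Fewer arrays leave fewer degrees of freedom, and for the other settings the cause was not tested. None of the 175 called genes examined singly reversed in any setting, while differences that were not called and lay near 0 changed sign with single arrays left out (AKT2, PIK3R1, GLUL and SNAI2). Of the 175, 56 kept their call on the 4 arrays alone and 166 under the replicate block. Levels near the array median limit folds against dim groups.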

Other observations

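Some gene families outside the lists, collected by their symbols after their values were seen, also differed between DLD1 Mut and WT cells without glutamine. Over all tested genes 5.91% were lower and 4.36% higher. Of 71 tested glycosyltransferases and carbohydrate sulfotransferases 11 were lower and 5 higher in Mut cells, with a median log2 difference of 0.03. Of 389 zinc finger genes named ZNF, also collected, 10 were lower and 14 higher. FUT3, the fucosyltransferase of Lewis antigens, was at log2 1.76 and 2.14 in Mut cells and 5.10 and 4.70 in WT cells (-2.96 ± 0.21, adjusted p = 1.53e-05). FUT2, the secretor fucosyltransferase, went the other way, 5.62 and 5.29 against 3.67 and 3.80 (1.73 ± 0.13, adjusted p = 3.55e-05). B3GNT3 and GALNT12 were lower by 1.19 and 1.08, and B4GALNT3 and MGAT5 higher by 1.75 and 1.16. Of 17 semaphorins, guidance cues of axons and cells, 4 were lower and none higher. SEMA5A was at 2.78 and 3.70 against 6.38 and 6.02, SEMA3B at 4.69 and 4.98 against 7.02 and 6.78, and SEMA4A at 1.55 and 1.49 against 3.56 and 3.97. SEMA7A was lower by 0.77 and lost its call without Mut replicate 2 (adjusted p = 0.072) or WT replicate 1 (0.0794).

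Of 40 serine protease genes named TMPRSS, PRSS or KLK 6 were lower and 2 higher, against 5.91% and 4.36% of all tested genes. Of 8 metallothioneins, zinc-binding proteins with near-identical copies and so uncertain, 4 were lower and none higher, and MT1X was at 8.16 and 8.01 against 9.13 and 9.12. CGAS, the sensor of cytosolic DNA, was at 1.86 and 1.61 against 4.70 and 3.79 (-2.51 ± 0.30, adjusted p = 0.000611), and the interferon-induced APOL6 at 5.19 and 5.12 against 7.21 and 6.93. EHF, an epithelial ETS factor, was at 6.64 and 6.60 against 8.42 and 8.35. These families and genes were picked for their values, so no count of theirs is support for a pattern.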
